A study of Mus musculus with 12 samples.

Results

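The 10 genes described here are transcriptional targets and feedback regulators of fibroblast growth factor (Fgf) signalling: the Ets transcription factors Etv1, Etv4 and Etv5, the phosphatase Dusp6, the Sprouty genes Spry1, Spry2 and Spry4, the Sprouty-related genes Spred1 and Spred2, and Il17rd, also called Sef. They were chosen by name, as every array probe whose transcript accession belongs to one of these symbols. All 10 were on the array, with 12 probes, out of 32496 genes or unnamed identifiers and 39429 probes. All 10 passed the filter on dim probes, beside 22574 of all genes and identifiers.

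Expression had been assayed on 12 one-colour Agilent arrays, 1 per sample of whole female mouse embryo at embryonic day 9.5, on a mixed C3HeB/FeJ background. The embryos came from crosses of carriers of the whirligig allele of Chd7 and were freed of their yolk sacs, and 4 samples were Chd7+/+ (wild type), 4 were Chd7Whi/+ (heterozygous) and 4 were Chd7Whi/Whi (homozygous). Chd7 encodes a chromatin remodeller whose human counterpart is mutated in CHARGE syndrome, and the whirligig allele carries a premature stop in that gene. The design text places the embryos at the time of neural crest migration and asks which genes are affected when functional Chd7 is lacking.

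An Fgf ligand that binds its receptor tyrosine kinase switches on Ras and the Erk kinases. Active Erk relieves repression by Capicua, and Etv1, Etv4 and Etv5 are then transcribed and act as nuclear effectors. The same signal induces its own brakes: Dusp6 removes phosphate from Erk in the cytoplasm, Sprouty and Spred proteins dampen signalling at the level of Ras and Raf, and Il17rd is a transmembrane inhibitor. In embryos of this age these genes mark sites of Fgf signalling such as the midbrain-hindbrain boundary, the pharyngeal region, the limb buds and the tail bud, and are widely read as a report of pathway activity.

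Promoter windows for 8 of the 10 genes were found in RefSeq's table (assembly GRCm38.p6), 10 windows in all, each from 250 bases before to 50 bases after an annotated transcription start. None was matched for Etv4 and Spry4. The 2 windows of Etv1 are printed because Etv1 was the member that changed, and the first of the 2 Etv5 windows and the Dusp6 window because these members stand beside it below as close relative and as feedback gene. Each sequence runs 5′ to 3′ on the gene's strand, and capitals mark CpG dinucleotides.
Etv1, first start, chr12:38779832-38780131, plus strand: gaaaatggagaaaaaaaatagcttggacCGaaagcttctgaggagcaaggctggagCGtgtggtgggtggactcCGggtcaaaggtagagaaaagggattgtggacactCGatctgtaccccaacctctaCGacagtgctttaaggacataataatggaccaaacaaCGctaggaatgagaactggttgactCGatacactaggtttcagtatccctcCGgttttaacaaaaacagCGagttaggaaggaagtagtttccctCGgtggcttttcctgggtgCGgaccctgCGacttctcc
Etv1, second start, chr12:38783461-38783760, plus strand: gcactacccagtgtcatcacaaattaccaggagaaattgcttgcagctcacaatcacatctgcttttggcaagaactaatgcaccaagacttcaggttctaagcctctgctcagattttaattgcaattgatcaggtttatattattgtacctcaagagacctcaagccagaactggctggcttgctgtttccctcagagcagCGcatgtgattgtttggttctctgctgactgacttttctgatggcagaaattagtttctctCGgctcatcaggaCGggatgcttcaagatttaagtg
Etv5, first start, chr16:22439521-22439820, minus strand: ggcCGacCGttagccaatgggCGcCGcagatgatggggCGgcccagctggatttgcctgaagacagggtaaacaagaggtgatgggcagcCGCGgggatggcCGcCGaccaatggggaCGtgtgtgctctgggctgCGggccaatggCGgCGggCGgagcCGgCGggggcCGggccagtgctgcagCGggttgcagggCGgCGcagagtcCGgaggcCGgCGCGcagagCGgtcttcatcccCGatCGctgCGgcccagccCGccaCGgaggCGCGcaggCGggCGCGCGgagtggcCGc
Dusp6, chr10:99262981-99263280, plus strand: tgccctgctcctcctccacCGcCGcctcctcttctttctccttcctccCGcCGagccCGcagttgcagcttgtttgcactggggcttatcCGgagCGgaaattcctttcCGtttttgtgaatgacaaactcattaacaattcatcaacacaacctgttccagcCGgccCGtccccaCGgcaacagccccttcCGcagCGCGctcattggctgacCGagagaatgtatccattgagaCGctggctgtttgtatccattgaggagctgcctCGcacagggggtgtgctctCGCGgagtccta

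The Etv1 windows held 12 and 3 CpG dinucleotides, with a GC content of 48.7% and 44%. The 8 windows of the other members held 17 to 40, among them 37 in the first and 19 in the second Etv5 window and 19 in the Dusp6 window, and the median over all 32851 promoter windows was 7. The octamers TGAATGAA and TGAATGGA, taken as forms of the Capicua site, were searched on both strands. Either was in 811 of the 32851 windows (2.47%) and in 0 of the 10 member windows. Other forms of the Capicua site were not searched. The 0 therefore holds for these letters only and does not show that the member windows lack Capicua sites. The Ets site CCGGAAGT was in 1277 windows (3.89%) and in 0 of the 10. These counts describe only the letters of the 300-base windows.

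Signals are given as log2 of the scanner software's processed signal minus the array's 75th percentile, so that 0 is the 75th percentile of that array. This scaled log2 signal sets arrays against each other for 1 probe and not 1 probe against another. Replicates are numbered in accession order, and a number names an array only. Between 70.02% and 76.38% of spots were well above background on each array. The 75th percentile of the processed signal was between 1115 and 1746. Each of the 3 slides carried 4 arrays and all 3 genotypes, but the 3 arrays in slide position 1 were all wild type. One array stood apart in heart and tail bud markers. On heterozygous replicate 1 the summed level of 8 heart markers was 9.66, in units of the array's 75th percentile, against 140 to 231 on the other 11 arrays. On the same array the 8 tail bud and presomitic markers summed to 6.48, against 1.99 to 2.80 on the others. Other tissue markers also varied between arrays. Yolk sac endoderm markers summed to 4.44 on homozygous replicate 3 and 74.4 on homozygous replicate 1, the lowest and highest arrays. Erythroid markers summed to 88.5 on homozygous replicate 2 and 339 on heterozygous replicate 2. No probe was tied to Chd7 by the gene table used, so the mutated gene itself was not analysed here. In whole-embryo RNA, fewer cells that express a gene and less RNA per cell cannot be told apart.

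**Figure D1:**
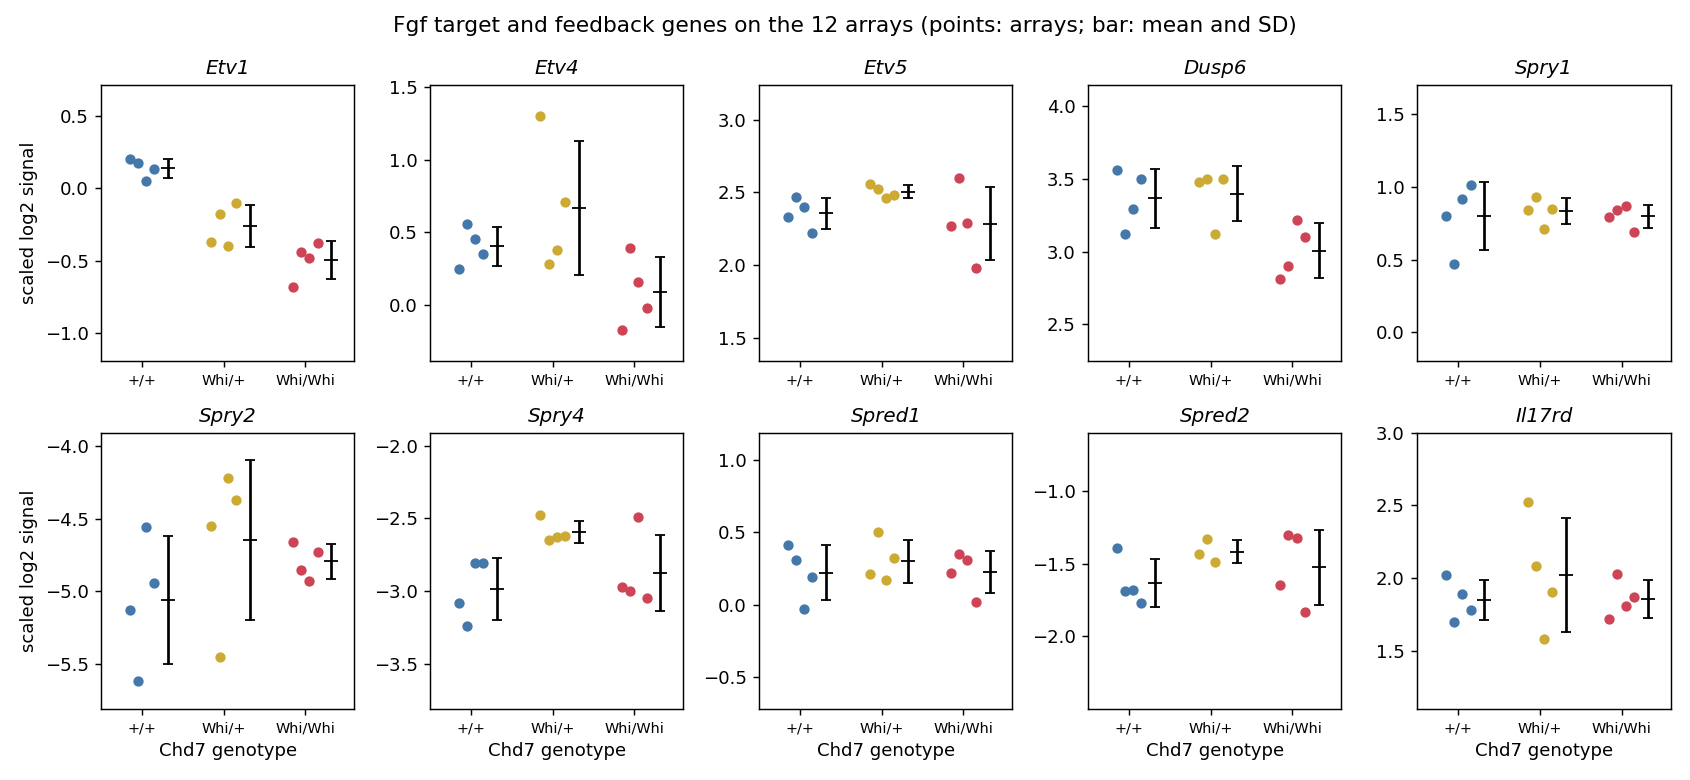
Scaled log2 signal of the 10 genes on each array (points) by Chd7 genotype, with the mean and SD beside each group of 4 arrays (3 for heterozygous Spred2). Every panel spans the same height on the log2 axis. The 4 homozygous and 4 heterozygous points of Etv1 lie below all wild-type points, while the homozygous points of the other 9 genes overlap wild type.

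Of the 3 Ets factors, Etv1 fell in homozygous embryos, to a level 1.55-fold below wild type. Etv4 and Etv5 did not pass the test, and the differences between the members are given below. Etv1 read 0.20, 0.17, 0.05 and 0.13 on wild-type replicates 1 to 4. It read -0.37, -0.18, -0.40 and -0.10 on the heterozygous arrays, and -0.68, -0.44, -0.48 and -0.38 on the homozygous arrays. Every array with a mutant copy was below every wild-type array, and the homozygous and heterozygous arrays overlapped. The mean scaled log2 signal was 0.14 ± 0.07 in wild type, -0.26 ± 0.15 in heterozygotes and -0.50 ± 0.13 in homozygotes (SD, n = 4 each).

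The difference between homozygous and wild-type embryos was -0.63 ± 0.10 on the log2 scale (SE, 95% interval -0.85 to -0.42, adjusted p = 0.0103, limma with Benjamini-Hochberg adjustment over all genes tested). Heterozygotes differed from wild type by -0.40 ± 0.10 (adjusted p = 0.248 in limma) and homozygotes from heterozygotes by -0.23 ± 0.10 (adjusted p = 0.842 in limma), so neither of these passed the threshold of 0.05. Within slides 1, 2 and 3 the homozygous minus wild-type difference of Etv1 was -0.88, -0.55 and -0.57, and the heterozygous minus wild-type difference was -0.48, -0.51 and -0.23. The homozygous call held when each of the 12 arrays was left out in turn (adjusted p = 0.00844 to 0.0441 in limma). With slide position as a block, which leaves 1 wild-type array to carry the comparison, the difference was again -0.63 with an adjusted p of 0.798 in limma. A second Etv1 probe failed the background criterion on every array, and its measured means were -7.44 in wild type, -7.25 in heterozygotes and -7.89 in homozygotes.

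Of the 22574 genes and identifiers tested, 310 passed the same threshold between homozygous and wild-type embryos (1.37%), 118 of them higher and 192 lower. That count was 116 and 109 without wild-type replicate 1 or 4, and 148, 132 and 145 without homozygous replicate 1, 2 or 3. Of the 10 members, 1 passed, Etv1, and 9 did not. Homozygous arrays lay entirely below wild type for 1 of the 10 members and for 1763 of all genes tested (7.81%).

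Limb bud markers were uneven in homozygotes. Their summed level over 7 genes, all on the array and 6 of them detected on all 12 arrays, was 3.94 to 4.54 in wild type, 3.20 to 4.46 in heterozygotes and 3.26 to 3.60 in homozygotes. Of the 6 tested, 1 fell in homozygotes, Prrx1, a homeobox gene of limb and craniofacial mesenchyme (-1.82 ± 0.30, adjusted p = 0.0137 in limma). Its mean scaled log2 signal was 0.41 in wild type and -1.41 in homozygotes. The lower sum in homozygotes includes the lower values of Prrx1 and Hand2. The other 5 did not pass. Hand2 (-0.78, with the homozygous arrays below all wild-type arrays) and Shh (-0.24) had lower values. Tbx5 (0.45, with the homozygous arrays above all wild-type arrays) and Msx1 (0.30) had higher ones, and Lmx1b was nearly level (0.01 ± 0.24). The median of the 6 was -0.12. The summed level of 6 neural tube markers was 8.24 to 12.8 in wild type and 7.33 to 9.74 in homozygotes, with overlap. Of these, 5 had a lower and 1 a higher value in homozygotes, with a median of -0.31, and 0 passed. The largest difference was that of Elavl3 (-1.12 ± 0.37, adjusted p = 0.176 in limma). The part of limb bud or neural tube tissue in the Etv1 difference was not tested.

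Etv4 read 0.25, 0.56, 0.45 and 0.35 on the wild-type arrays. The homozygous arrays gave -0.17, 0.39, 0.16 and -0.02, and 1 of them, replicate 2, lay inside the wild-type range. Heterozygous replicates read 1.30, 0.28, 0.38 and 0.71. The highest of these was replicate 1, the array with high tail bud and low heart markers, whose part in the Etv4 value was not tested. The homozygous minus wild-type difference was -0.32 ± 0.20 (95% interval -0.76 to 0.13, adjusted p = 0.448 in limma). The heterozygous minus wild-type difference was 0.26 ± 0.20 (adjusted p = 0.515), and 0.05 without heterozygous replicate 1. A second, dimmer Etv4 probe gave -0.17 and 0.36 for these differences, with the same signs, and its heterozygous replicate 1 was again highest, at -0.39 against -1.95 to -1.20 on the other heterozygous arrays.

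Etv5 read 2.33, 2.47, 2.40 and 2.22 in wild type, 2.56, 2.52, 2.46 and 2.48 in heterozygotes, and 2.27, 2.60, 2.29 and 1.98 in homozygotes. The homozygous arrays held both the highest and the lowest value of all 12. The difference from wild type was -0.07 ± 0.12 in homozygotes (95% interval -0.33 to 0.19, adjusted p = 0.796 in limma) and 0.15 ± 0.12 in heterozygotes (adjusted p = 0.521). The interval of Etv5 does not reach the 0.63 by which Etv1 fell, whereas that of Etv4 (-0.76 to 0.13) includes it.

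The change of Etv1 relative to its relatives was taken within each array, a comparison chosen after the values had been seen. The log2 signal of Etv1 minus that of Etv5 was -2.35 to -2.09 on the wild-type arrays, -2.93 to -2.58 on the heterozygous arrays and -3.04 to -2.36 on the homozygous arrays. Its mean differed from wild type by -0.56 in homozygotes and by -0.55 in heterozygotes, with no overlap, and in both cases p = 0.0286 in a two-sided exact permutation test, the smallest that 4 against 4 arrays allow. Adjusted over the 6 such comparisons made, this was p = 0.0572 (exact permutation test), above the threshold. Relative to Etv4, Etv1 was lower by 0.32 on average in homozygotes (difference -0.32, exact permutation p = 0.0857, adjusted 0.129), and by 0.66 in heterozygotes (difference -0.66, exact permutation p = 0.0286, adjusted 0.0572). No ratio passed after adjustment, and since Etv1 had been seen to fall before the ratios were formed, they are given as descriptions and not as evidence that the 3 genes differ in response.

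Among the feedback genes none passed the test in homozygous embryos, and Dusp6 had the largest difference from wild type. Dusp6, the cytoplasmic Erk phosphatase, read 3.56, 3.12, 3.29 and 3.50 in wild type, 3.48, 3.50, 3.12 and 3.50 in heterozygotes, and 2.81, 2.90, 3.22 and 3.1 in homozygotes. Homozygous replicates 1, 2 and 4 were below every wild-type array, and replicate 3 was above the lowest of them. The homozygous minus wild-type difference was -0.36 ± 0.14 (95% interval -0.66 to -0.06, unadjusted p = 0.0223, adjusted p = 0.229 in limma). Within slides 1, 2 and 3 it was -0.75, -0.30 and -0.34. Across all genes tested, 3802 of 22574 had an unadjusted p under 0.05 in this comparison, and so did 2 of the 10 members, Etv1 and Dusp6.

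The Sprouty genes encode intracellular inhibitors that are themselves induced by Fgf. Spry1 read 0.80, 0.47, 0.92 and 1.01 in wild type, 0.84, 0.93, 0.71 and 0.85 in heterozygotes, and 0.79, 0.84, 0.87 and 0.69 in homozygotes. The mutant arrays all lay inside the wild-type range, and the homozygous difference was 0.00 ± 0.12 (95% interval -0.25 to 0.25, adjusted p = 0.999 in limma). Spry2 was dim but well above background on all 12 arrays, at -5.13, -5.62, -4.56 and -4.94 in wild type, -4.55, -5.45, -4.22 and -4.37 in heterozygotes, and -4.66, -4.85, -4.93 and -4.73 in homozygotes. Its groups overlapped, and the wide spread left a homozygous difference of 0.27 ± 0.26 with a 95% interval of -0.31 to 0.85 (adjusted p = 0.627 in limma).

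Spry4 was the member whose heterozygous arrays all lay above wild type. It read -3.08, -3.24, -2.81 and -2.81 in wild type, -2.48, -2.65, -2.63 and -2.62 in heterozygotes, and -2.97, -3.00, -2.49 and -3.05 in homozygotes. The heterozygous difference was 0.39 ± 0.14 (95% interval 0.08 to 0.70, unadjusted p = 0.017, adjusted p = 0.269 in limma), which did not pass the threshold. It was 0.51, 0.39 and 0.19 within slides 1, 2 and 3, and 0.35 without heterozygous replicate 1. The homozygous difference was 0.11 ± 0.14 (adjusted p = 0.729 in limma), and replicate 3 supplied the only homozygous value above the wild-type range.

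Spred1 and Spred2 encode membrane-bound inhibitors of Raf activation. Spred1 read 0.41, 0.31, -0.03 and 0.19 in wild type, 0.21, 0.50, 0.17 and 0.32 in heterozygotes, and 0.22, 0.35, 0.31 and 0.02 in homozygotes. The groups overlapped, with a homozygous difference of 0.00 ± 0.12 (95% interval -0.26 to 0.27, adjusted p = 0.995 in limma). Spred2 read -1.39, -1.69, -1.68 and -1.77 in wild type, -1.43, -1.33 and -1.49 in heterozygous replicates 1 to 3, and -1.65, -1.30, -1.32 and -1.83 in homozygotes. Its spot on heterozygous replicate 4 was marked as an outlier by the scanner software and dropped. The homozygous difference of Spred2 was 0.11 ± 0.14 (95% interval -0.19 to 0.41, adjusted p = 0.717 in limma). Il17rd, the transmembrane antagonist, read 2.02, 1.70, 1.89 and 1.78 in wild type, 2.52, 2.08, 1.58 and 1.90 in heterozygotes, and 1.72, 2.03, 1.81 and 1.87 in homozygotes. Its highest value was again on heterozygous replicate 1, and the heterozygous difference of 0.17 ± 0.17 (adjusted p = 0.611 in limma) was 0.00 without that array. The homozygous difference was 0.01 ± 0.17 (95% interval -0.36 to 0.38, adjusted p = 0.984 in limma).

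**Figure D2:**
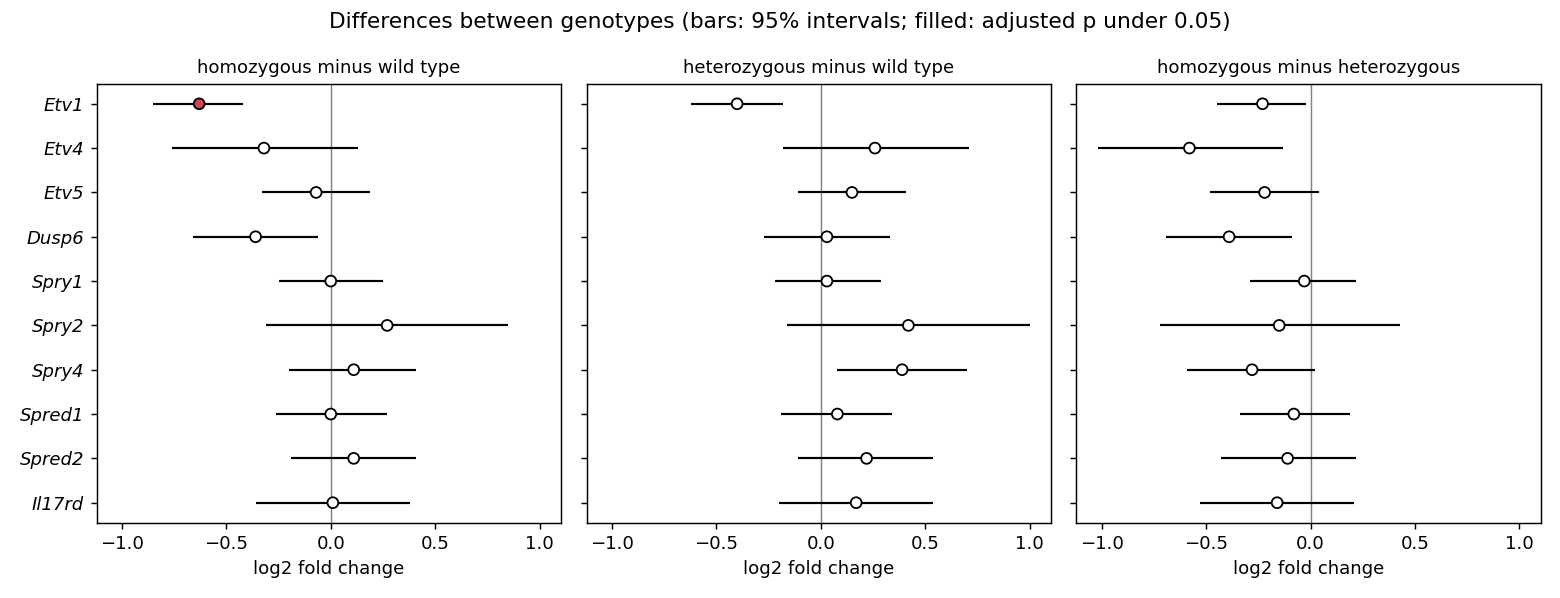
Log2 fold change of each gene (points) with its 95% interval (bars) in the 3 comparisons between genotypes, each fitted on all 12 arrays. One point is filled for an adjusted p under 0.05, Etv1 in homozygous minus wild type at -0.63, and all 10 points lie below 0 in homozygous minus heterozygous.

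Read as a group, the 10 genes did not shift one way between homozygous and wild-type embryos: 4 had a lower and 4 a higher fitted mean, Spry1 and Spred1 were at 0.00, and the median difference was 0.00 beside 0.02 over all genes tested, with a range from -0.63 to 0.27. With the array median as scale 7 of the 10 were lower and the median of all genes was -0.05. The median difference of the members within slides 1, 2 and 3 was -0.22, 0.16 and -0.06.

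Between heterozygous and wild-type embryos 0 of the 10 members passed, beside 2 of 22574 genes tested (0.00886%). At an unadjusted p under 0.05 there were 2 members, Etv1 and Spry4, and 3427 of all genes tested. The fitted mean was higher in heterozygotes for 9 members and lower for Etv1, with a median difference of 0.16 beside 0.04 over all genes tested, of which 55.9% were higher. The member median was 0.08 without heterozygous replicate 1. When arrays were scaled to their median in place of the 75th percentile, the median of all genes tested moved from 0.04 to -0.07 in this comparison and 6 members were higher and 4 lower. Heterozygous arrays lay entirely above wild type for 1 member, Spry4, and for 984 of all genes tested (4.36%), and entirely below for 1 member, Etv1, and for 526 of all genes tested (2.33%).

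Between homozygous and heterozygous embryos 0 of the 10 members passed, beside 3 of 22574 genes tested (0.0133%), and 3 members and 1311 genes tested had an unadjusted p under 0.05. The 3 members were Etv1, Etv4 (-0.58 ± 0.20, 95% interval -1.02 to -0.13, adjusted p = 0.728 in limma) and Dusp6 (-0.39 ± 0.14, 95% interval -0.69 to -0.09, adjusted p = 0.725 in limma). All 10 members had a lower fitted mean in homozygotes, by 0.03 to 0.58, with a median of -0.19 beside -0.02 over all genes tested, of which 56.3% were lower. All 10 were lower with the 75th percentile, the array median, quantile normalization and normexp correction, and 9 of 10 were lower without heterozygous replicate 1 or without homozygous replicate 4. Within slides the pattern was uneven: 9 of 10 were lower on slide 1, 4 of 10 on slide 2 and 9 of 9 on slide 3. The 3 comparisons share arrays, so their member counts are not independent of each other.

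The heterozygous mean was the highest of the 3 genotypes for 9 members, a position that 35.5% of all genes tested had, and lay between the others for Etv1, as for 41.2% of all genes tested. On the scale of the reported values, Etv1 was thus the 1 member whose means fell in the order of whirligig copies. Its step from heterozygous to homozygous did not pass the test. These positions depended on the scale. With the array median as scale, 4 members fell in that order, namely Etv1, Dusp6, Spry1 and Spred1. The other 6 again had their highest mean in heterozygotes. The median deviation of the members from their wild-type means was -0.10 to 0.04 on the wild-type arrays, -0.04 to 0.20 on the heterozygous and -0.20 to 0.08 on the homozygous arrays, with overlap between all genotypes.

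Genes elsewhere in the pathway were read from 5 lists, of which 72 of 79 genes were tested. Between homozygous and wild-type embryos 1 rose and 2 fell (4.17% of those tested, beside 1.37% of all genes), with a list median of 0.01. In each of the other comparisons 0 passed in limma. An unadjusted p under 0.05 was reached by 13 of the 72 genes in homozygous minus wild type. It was reached by 14 in heterozygous minus wild type and by 6 in homozygous minus heterozygous. Over all 22574 genes tested the counts in these comparisons were 3802, 3427 and 1311.

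**Figure D3:**
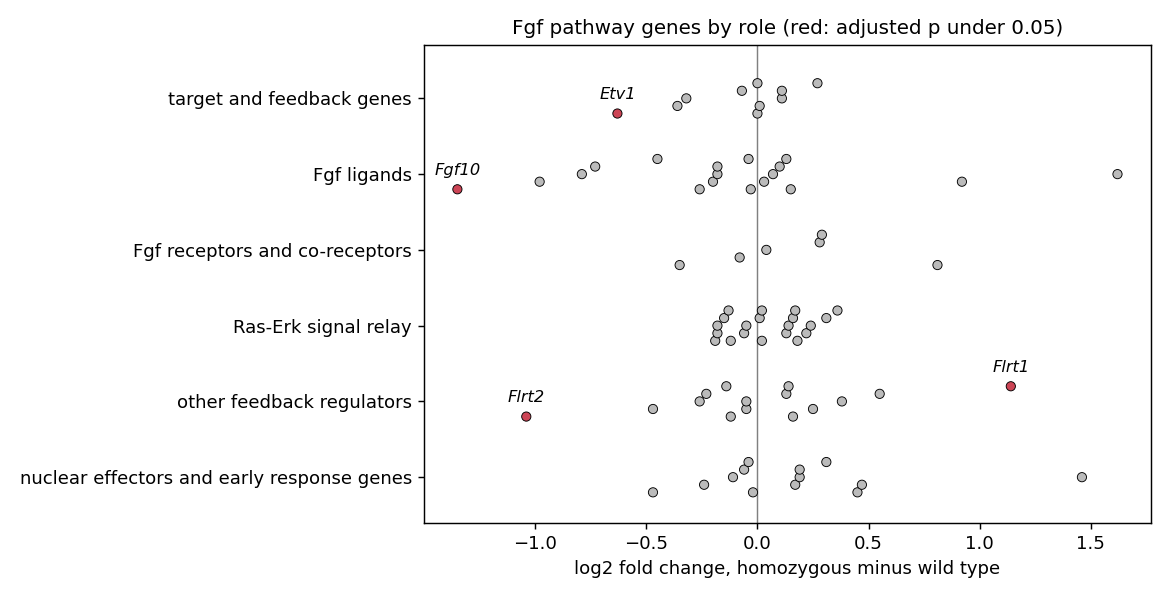
Log2 fold change between homozygous and wild-type embryos for the 10 target and feedback genes and the 72 tested genes of 5 other pathway lists, each gene a point in the row of its role. Red points passed an adjusted p of 0.05, namely Etv1, Fgf10 and Flrt2 below 0 and Flrt1 above 0.

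Of 18 Fgf ligands tested of 22 listed, 1 fell. Fgf10, the mesenchymal ligand needed for limb and lung outgrowth, read -2.37, -2.65, -2.60 and -2.29 in wild type, -3.18, -3.05, -3.45 and -2.94 in heterozygotes, and -3.55, -3.84, -4.09 and -3.82 in homozygotes. None of the 3 groups overlapped another. Homozygotes differed from wild type by -1.35 ± 0.14 (adjusted p = 0.0011 in limma), and the steps from wild type to heterozygote and from heterozygote to homozygote, each -0.67, had adjusted p-values of 0.234 and 0.288 in limma. The limb bud markers given above for Etv1 stand beside this result too, and their part was not tested. Of the 6 tested, Prrx1 (-1.82) and Hand2 (-0.78) lay below all wild-type arrays on the homozygous arrays. Tbx5 (0.45) lay above them, and the rest overlapped wild type. Fgf7, another mesenchymal ligand, differed by -0.79 ± 0.18 without passing (adjusted p = 0.0621 in limma). Fgf5, named after its values were seen, differed by -0.73 ± 0.24 (adjusted p = 0.173 in limma). In the other direction, and also named after their values were seen, were Fgf3 and Fgf15. Fgf3 differed by 1.62 ± 0.38 (adjusted p = 0.0664 in limma) and Fgf15 by 0.92 ± 0.26 (adjusted p = 0.119 in limma).

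Among the 6 receptors and co-receptors tested of 7 listed, 0 passed, with 1 at an unadjusted p under 0.05. The 2 with the smallest p were Fgfr3 (-0.35, adjusted p = 0.244 in limma), whose other probe gave 0.13, and Fgfr2 (0.29, adjusted p = 0.309 in limma), whose other probe gave 0.40. All 20 genes of the Ras-Erk relay were tested and 0 passed, with 1 at an unadjusted p under 0.05 and differences of -0.19 to 0.36. The adaptor Gab1 (0.31, adjusted p = 0.267) and the kinase Mapk3, which is Erk1 (0.36, adjusted p = 0.34), had the smallest p-values there.

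Of 15 other feedback regulators tested of 16 listed, 1 rose and 1 fell, and the pair belongs to a single family of leucine-rich transmembrane proteins that bind Fgf receptors. Flrt1 read -1.34, -1.83, -1.07 and -1.82 in wild type, -1.21, -1.46, -1.41 and -0.94 in heterozygotes, and -0.75, -0.06, -0.38 and -0.29 in homozygotes. The homozygous arrays were above all others, and the difference from wild type was 1.14 ± 0.20 (adjusted p = 0.0183 in limma), with 2.16 and 1.18 for its other probes. Flrt2 read 0.12, -0.10, -0.69 and -0.28 in wild type, -1.01, -0.51, -0.82 and -0.34 in heterozygotes, and -1.36, -1.26, -1.32 and -1.15 in homozygotes. Here the homozygous arrays were below all others, with a difference of -1.04 ± 0.18 (adjusted p = 0.017 in limma). Its other probe gave -0.61 (adjusted p = 0.327 in limma). Flrt3, of the same family and named after its values were seen, differed by -0.47 ± 0.13 without passing (adjusted p = 0.117 in limma). Its homozygous arrays were below all wild-type arrays.

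The Flrt calls were less steady than that of Fgf10. Flrt1 lost its call without wild-type replicate 4, homozygous replicate 2 or homozygous replicate 3 (adjusted p = 0.0702, 0.0653 and 0.0537 in limma). Flrt2 lost it without wild-type replicate 1 or 4, or without homozygous replicate 1, 2 or 3 (adjusted p = 0.0551, 0.0591, 0.055, 0.052 and 0.0537 in limma), and also with normexp background correction (-0.94, adjusted p = 0.0524 in limma). With slide position as a block, the differences were -1.22 for Fgf10, 0.50 for Flrt1 and -0.65 for Flrt2, with adjusted p-values of 0.426, 1 and 1 in limma. Within slides 1, 2 and 3 the homozygous minus wild-type difference was 0.59, 1.38 and 1.49 for Flrt1 and -1.48, -0.86 and -0.96 for Flrt2.

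Of 13 nuclear effectors and early response genes tested of 14 listed, 0 passed, with 1 at an unadjusted p under 0.05. That gene was Ier3, an early response gene, which differed by 1.46 ± 0.54 (adjusted p = 0.215 in limma). Ier3 was also far higher on heterozygous replicate 4 (-1.68) than on the other heterozygous arrays (-4.59 to -4.38). Elk1, an Ets factor that Erk phosphorylates, differed by 0.31 (adjusted p = 0.342 in limma), with 0.12 at its other probe.

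**Figure D4:**
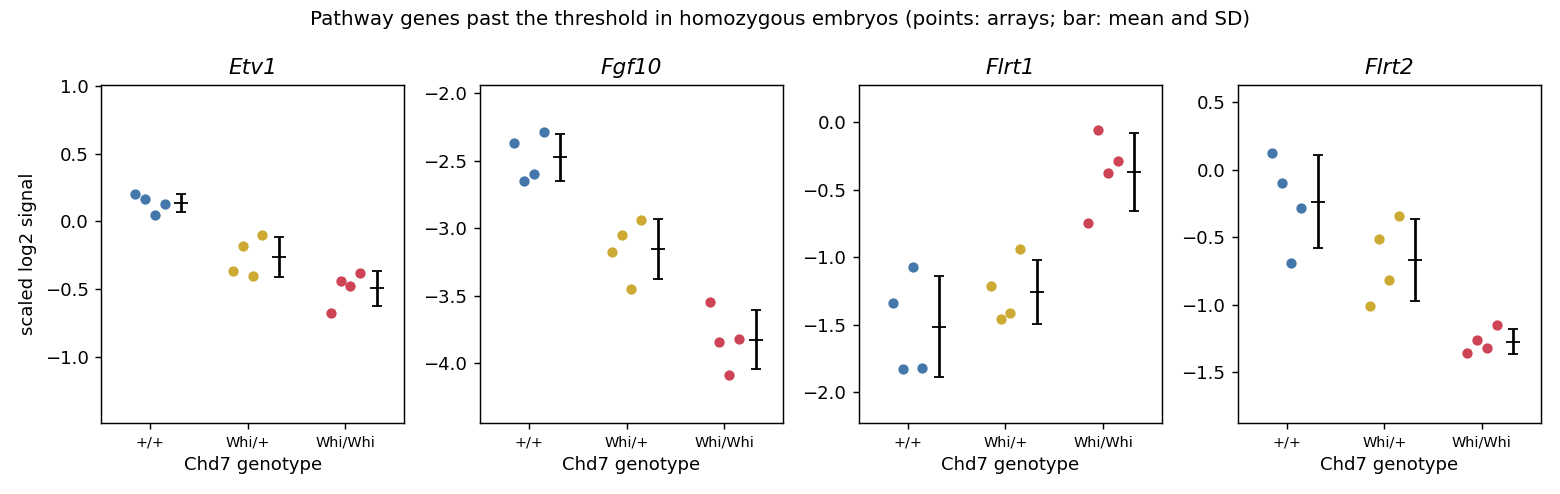
Scaled log2 signal of the 4 pathway genes past the threshold between homozygous and wild-type embryos, on each array (points) by genotype, with the mean and SD of 4 arrays. Etv1, Fgf10 and Flrt2 are lower and Flrt1 higher on all 4 homozygous arrays than on all wild-type arrays.

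The members did not share one profile over the 12 arrays. Pearson's r of each member with the mean standardised profile of all 10, in which each has a share itself, was 0.19 for Etv1, 0.12 for Spry2, 0.44 for Spred1 and 0.54 for Spry1, and 0.67 to 0.72 for the other 6. Outside the members, the genes most like that mean profile were Rgs9 (r = 0.88, Spearman's rho 0.78), Foxe1 (0.87 and 0.87), Pla2g2e (0.86 and 0.76), Synb (0.83 and 0.87) and Pear1 (0.82 and 0.76), picked from all tested genes with a symbol over 12 arrays. All 5 had a higher mean in heterozygotes than in wild type, by 0.13 to 0.48. These correlations are descriptions, since the arrays share genotypes and slides.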

How the data were processed

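Total RNA of 12 samples was hybridised to 12 one-colour (Cy3) arrays. Per the file headers, the deposited intensity values are the processed signal of each spot from Agilent Feature Extraction 10.7.3.1, corrected for background within the array and not scaled between arrays. The authors' value table repeats these intensities, unlogged and uncentred, with column medians of 107 to 154.7. The submitters' processing notes also name limma with no version, and how it was run is not given in the sources used here.

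From the deposited intensities, log2 of the processed signal minus each array's 75th percentile was computed. Control spots (1377) and spots with an outlier mark (171 to 386 per array) were left out, no spot was saturated, and spots of 1 probe were averaged. RefSeq's gene table (GRCm38.p6) named 26049 probes by accession, the other 13380 kept their identifier, and the brightest probe stood for a gene. Probes entered the test if all arrays of some genotype read them as well above background. One model with a mean per genotype was fitted to all 12 arrays (lmFit and eBayes of limma 3.58.1, R 4.3.3), with Benjamini-Hochberg adjustment over all genes tested, and was tested on simulated data. The labels call the samples biological replicates without naming litters. With 4 arrays a genotype, that number limits precision.

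The members, lists and rules were chosen with earlier results of these data known. All members were named; of each pathway list, the genes past the threshold and the 2 with the smallest p in homozygous minus wild type; and the 5 genes most correlated with the members' mean profile. The Ets site search was added later than these rules. Marker levels are sums of scaled linear signals. The other marker lists gave ranges of 2.60 to 4.70 (midbrain-hindbrain boundary), 6.28 to 13.3 (forebrain), 4.15 to 7.68 (endothelial), 88.5 to 339 (erythroid) and 4.44 to 74.4 (yolk sac endoderm) over all arrays, with overlap between genotypes. Alternatives covered background correction, scaling, value source, filters, probe choice, slide, position and title-number blocks, the genotypes fitted, variance model, array weights and each array left out. Figures were drawn with matplotlib 3.10.9.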

Additional observations from a re-analysis of the deposited data

Results flagged for a closer look

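In 2 of 29 sets of 4 arrays (a member in a genotype) 1 array lay far from the other 3, by a rule that chance meets in about 1 set in 20. Dusp6 on heterozygous replicate 3 was 3.12, while the other heterozygous arrays read 3.48 to 3.50, so that the gap took up 0.941 of the group's range. Spry4 on homozygous replicate 3 was -2.49, while the other homozygous arrays read -3.05 to -2.97 and the gap took up 0.846 of the range. Neither value decided a call.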

How the results depend on the processing

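Among the alternatives, the value table, the probe average and the filters left the Etv1 values unchanged, so they could not move its difference. Etv1 passed the threshold between homozygous and wild-type embryos under 24 of 26 alternatives, with a difference of -0.71 to -0.57. The exceptions were slide position as a block (-0.63, adjusted p = 0.798 in limma) and the title number as a fixed replicate block (-0.61, adjusted p = 0.22 in limma). Both left 0 members called, and gave member medians of -0.12 and 0.12 where 0.00 was reported. The labels do not say what the title numbers stand for. Deviations correlated at -0.32 to 0.29 (median 0.02) over 11 pairs of arrays with the same number. Over 37 other pairs they correlated at -0.34 to 0.24 (median 0.02). With so few arrays, these ranges cannot show whether arrays with the same number share a litter. In the other comparisons 0 members were called under every alternative. The heterozygous minus wild-type member median was 0.05 with the array median as scale and 0.06 with the position block. The homozygous minus heterozygous median kept its sign throughout, at -0.26 to -0.10. Of 728 refitted member differences with a direction at 2 decimals (28 under 26 alternatives), 28 changed sign, 0 of them past the threshold, and the causes were not tested. Spry1 and Spred1, at 0.00 between homozygous and wild-type embryos, have no direction to change there and ran from -0.11 to 0.07 and from -0.08 to 0.29.

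In homozygous minus wild type the changed signs were, with normexp, Etv5 at 0.04, Spry2 at -0.18 and Spry4 at -0.06; Il17rd at -0.07 on the array median scale and -0.01 with array weights; Spry2 at -0.24 and Il17rd at -0.13 with the position block; and Etv5 at 0.12 with the title-number block. In heterozygous minus wild type they were, on the array median scale, Dusp6 at -0.08, Spry1 at -0.07 and Spred1 at -0.03. With array weights Dusp6 and Spry1 were both at -0.01, and with the slide as a block Dusp6 was at -0.03. The position block gave Spry1 -0.02, Spry2 -0.09, Il17rd -0.06 and, outside the members, Flrt1 -0.58. In homozygous minus heterozygous the title-number block gave Spry1 0.03, Spred1 0.04 and Spred2 0.16. Leaving out 1 array at a time, the homozygous minus wild-type difference ran from -0.18 to 0.03 for Etv5, -0.02 to 0.17 for Spry4 and -0.05 to 0.07 for Il17rd. The heterozygous minus wild-type difference ran from -0.05 to 0.13 for Dusp6, -0.08 to 0.10 for Spry1 and -0.01 to 0.14 for Spred1.

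The number of all genes past the threshold between homozygous and wild-type embryos was 310 as reported, 94 with normexp, 187 without a filter, 18 with the position block, 20 with the title-number block and 505 with array weights, and 109 to 454 when 1 array was left out. The pathway lists' 3 calls became 0 with either block, 2 with normexp, 7 when only the genotypes compared were fitted, 5 with array weights and 1 to 6 when 1 array was left out, with 1 without wild-type replicate 4 or homozygous replicate 2 and 6 without heterozygous replicate 4. Precision for a dim probe such as Spry2 is also limited by its signal over background.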
